A study of Mus musculus with 9 samples.

Results

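The genes described here are the bone morphogenetic protein (BMP), growth differentiation factor (GDF) and activin ligands, with their receptors, the SMAD proteins, 4 secreted antagonists and the 4 Id genes. They were chosen by gene symbol on a mouse oligonucleotide array. The symbols taken were Bmp2 to Bmp9, Bmpr, Smad, Acvr, Inha, Inhb and Gdf genes, Id1 to Id4, Nog, Chrd, Grem1 and Fst. Of 8251 genes with a probe set of their own, 41 met this rule, on 50 probe sets. Each gene was read from the probe set with the highest arithmetic mean intensity. The rule also took in Bmp2k, a BMP-inducible kinase that belongs to none of these classes. A probe set annotated to both Cers1 and Gdf1 was not used.

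Total RNA of embryonic orofacial tissue from mice was measured at gestation day (GD) 12, GD13 and GD14, with 3 arrays a day. No strain, genotype or treatment was given for any group, and the groups differed by day alone in the labels. Whether the 3 samples of a day came from separate litters was not stated, so p-values measure only the spread between these samples, which may be technical. In a bulk tissue, fewer cells of a type and less RNA per cell cannot be told apart.

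BMPs, GDFs and activins are secreted dimers of the transforming growth factor beta superfamily. They bring together type I and type II receptor kinases, which phosphorylate receptor SMADs: SMAD1 and SMAD5 mainly after BMPs, SMAD2 and SMAD3 after activins. These enter the nucleus with the common SMAD4 and switch on targets such as the Id genes. SMAD6 and SMAD7 inhibit the pathway inside the cell, whereas noggin, chordin, gremlin and follistatin bind the ligands outside it. In the embryonic face, BMP signals pass between epithelium and mesenchyme during outgrowth of the palatal shelves.

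Promoter sequences (RefSeq, GRCm38.p6) were at hand for 29 of the 41 genes. The 5 below show the letters to which SMAD proteins are known to bind, in 3 Id genes that are direct BMP targets, in the feedback inhibitor Smad6 and in Acvr2b, the receptor gene with the largest differences from GD12. Each run holds 250 bases before and 10 after the start of the gene, on the gene's strand. The Id2 run lies at chr12:25096083-25096342 (minus strand), Id3 at chr4:136143572-136143831 (plus strand) and Id4 at chr13:48260866-48261125 (plus strand). Smad6 lies at chr9:64022050-64022309 (minus strand) and Acvr2b at chr9:119401928-119402187 (plus strand). Capitals mark GGCGCC in Id2 and Id4, CAGAC or its reverse complement GTCTG in Id3 and Acvr2b, and GTCTAGAC in Smad6.
Id2: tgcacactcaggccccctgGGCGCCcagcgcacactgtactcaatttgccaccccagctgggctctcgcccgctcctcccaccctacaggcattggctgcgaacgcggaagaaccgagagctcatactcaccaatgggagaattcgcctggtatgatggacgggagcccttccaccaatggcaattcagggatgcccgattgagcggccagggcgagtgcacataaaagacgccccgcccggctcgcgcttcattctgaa
Id3: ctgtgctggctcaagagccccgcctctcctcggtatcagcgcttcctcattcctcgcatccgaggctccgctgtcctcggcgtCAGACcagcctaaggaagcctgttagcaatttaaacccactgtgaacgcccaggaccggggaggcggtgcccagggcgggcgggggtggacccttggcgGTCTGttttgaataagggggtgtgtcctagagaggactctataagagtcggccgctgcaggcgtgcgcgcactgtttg
Id4: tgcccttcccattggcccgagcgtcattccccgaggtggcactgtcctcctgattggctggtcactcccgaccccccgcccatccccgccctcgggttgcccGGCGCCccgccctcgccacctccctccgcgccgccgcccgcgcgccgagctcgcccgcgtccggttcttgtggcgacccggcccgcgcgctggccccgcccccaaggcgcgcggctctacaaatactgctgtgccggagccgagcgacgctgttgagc
Smad6: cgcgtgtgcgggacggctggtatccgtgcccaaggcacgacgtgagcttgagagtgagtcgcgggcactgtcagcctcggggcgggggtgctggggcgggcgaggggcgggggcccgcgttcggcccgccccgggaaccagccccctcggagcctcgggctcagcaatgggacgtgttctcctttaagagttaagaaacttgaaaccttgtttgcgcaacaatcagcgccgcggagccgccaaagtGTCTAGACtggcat
Acvr2b: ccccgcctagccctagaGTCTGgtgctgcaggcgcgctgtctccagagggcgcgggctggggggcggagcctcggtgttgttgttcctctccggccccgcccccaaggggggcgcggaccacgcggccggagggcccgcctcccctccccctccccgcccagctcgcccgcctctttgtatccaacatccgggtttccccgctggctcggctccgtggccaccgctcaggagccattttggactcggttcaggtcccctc
Both strands were searched over 300 bases, 250 before and 50 after the start, and none of the 3 motifs contains another. The palindrome GTCTAGAC stood in 57 of 27025 mouse promoters (0.211%) and in 1 of the 29, Smad6, where it spans the start from position -4 to 4. GGCGCC stood in 12.0% of all promoters and in 10 of the 29 (34.5%), among them Bmpr1a, Bmpr2, Chrd, Grem1, Id2, Id4 and Smad5. The short motif CAGAC stood in 49.7% of all promoters and in 14 of the 29 (48.3%). These matches describe the letters in the windows only.

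Of the 41 genes, 34 were bright enough to be tested, and 0 passed in any comparison of days. Bmp8b, Bmpr1b, Gdf11, Grem1, Inhbb, Inhbe and Smad3 were too dim by their mean log2 value. A probe set passed at an adjusted p under 0.05 (limma, Benjamini-Hochberg over 9316 tested probe sets). By that rule 4.3% of all tested probe sets passed between GD14 and GD12, 0.644% between GD13 and GD12, and 0.0429% between GD14 and GD13. Over all 3 days in 1 F-test 2.59% passed, and in the difference between the second and the first daily step 0.0%. At an unadjusted p under 0.05, 6 of the 34 differed between GD14 and GD12 (17.6%), against 17.5% of all tested probe sets. They were Bmp6 and Bmp8a, higher at GD14, and Acvr2b, Smad2, Inhba and Id3, lower at GD14.

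Unadjusted p-values were read the same way for each daily step. Between GD13 and GD12, 5 genes had an unadjusted p under 0.05 (14.7%, against 11.0% of all tested probe sets), namely Acvr2b, Bmpr2, Id3, Bmp6 and Bmp8a. Between GD14 and GD13 there were 0, against 7.18% of all tested probe sets. The arrays of GD13 and GD12 did not overlap for 9 of the 34 genes (26.5%, against 18.5%), and those of GD14 and GD13 for 2 (5.88%, against 13.0%). Those of GD14 and GD12 did not overlap for 7 (20.6%, against 22.3%). The 2 genes that separated GD14 from GD13 were Bmp4, higher at GD14, and Inhba, lower at GD14. In the F-test over the 3 days 4 genes had an unadjusted p under 0.05 (11.8%, against 14.2% of all), Acvr2b, Smad2, Bmp6 and Bmp8a. Without 1 array this count was 2 to 7. Acvr2b alone among the 34 had an unadjusted p under 0.05 for the difference between the steps (2.94%, against 4.86% of all), and its adjusted p was 0.957.

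**Figure D1:**
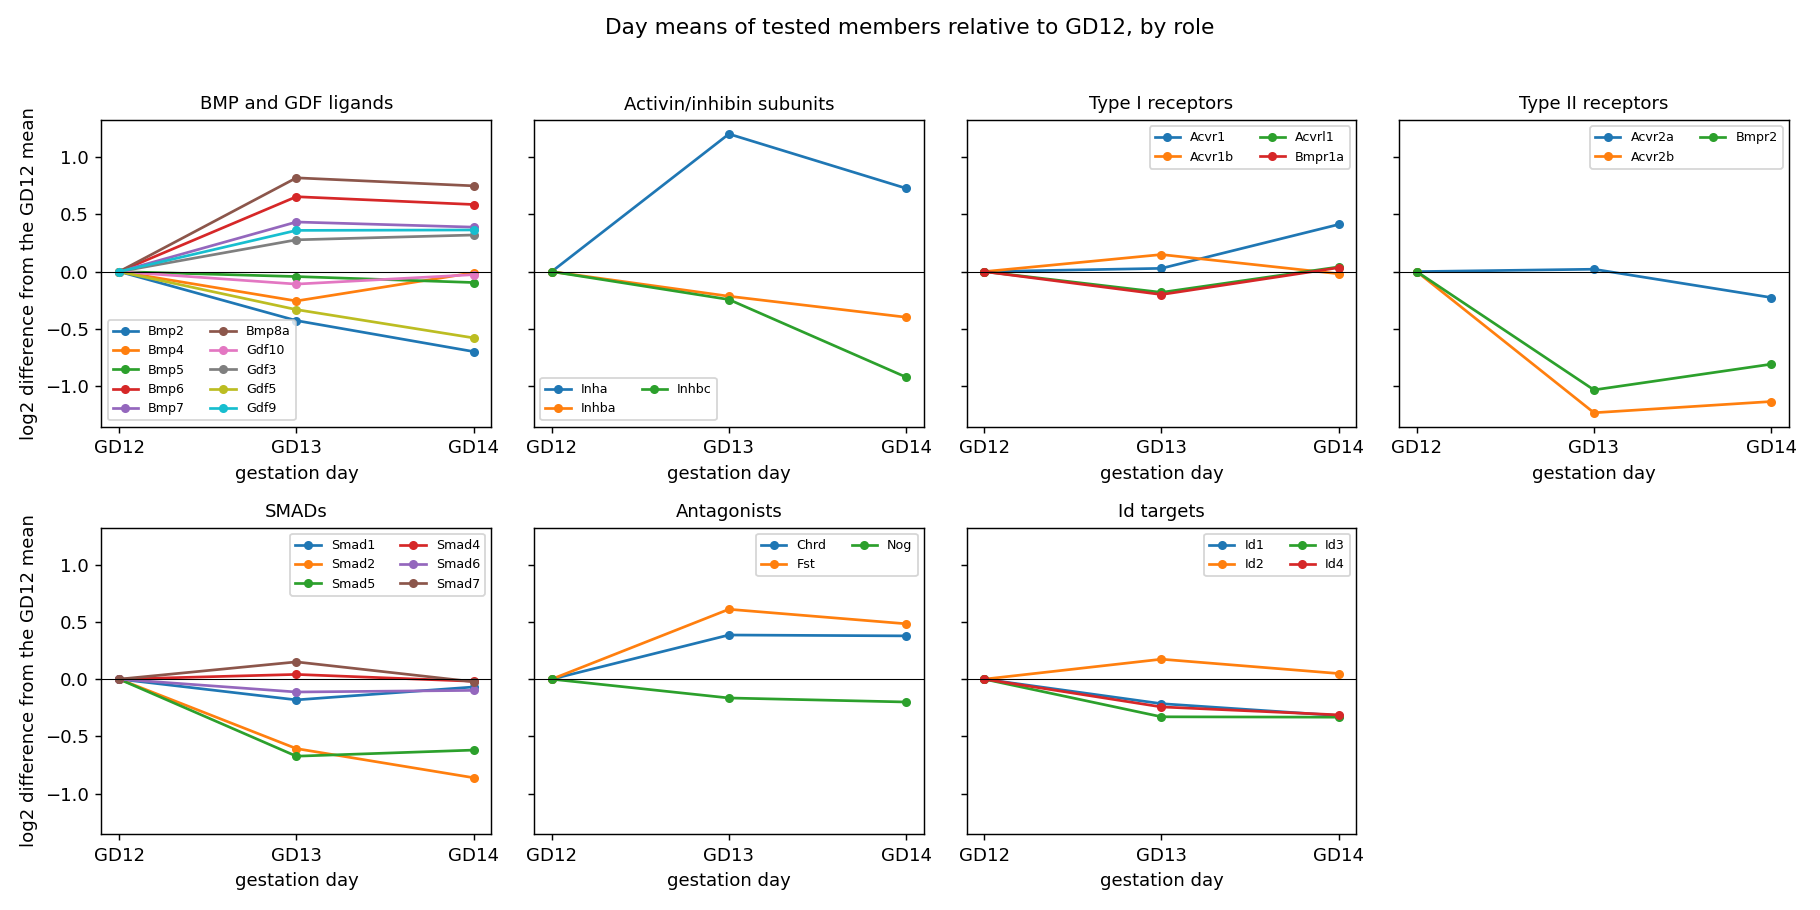
Mean difference of each tested gene except Bmp2k from GD12, in log2 units of intensity plus 3, by gestation day and by role. Points are means of 3 arrays. Of the genes drawn, the type II receptors Acvr2b (-1.23) and Bmpr2 (-1.03) lie farthest below 0 at GD13, and Inha (1.20, or 0.58 without GD12 replicate 3) farthest above.

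Among the BMP ligands, Bmp4, which patterns facial mesenchyme, had intensities of 243.7, 238.2 and 207.5 at GD12, 203.2, 210.1 and 164.3 at GD13, and 229.0, 236.0 and 218.3 at GD14. The GD13 arrays all lay below the GD14 arrays, and the log2 difference of GD14 from GD12 was -0.01 (SE 0.15, 95% interval -0.36 to 0.34). A second Bmp4 probe set had 138.6, 122.1 and 158.3 at GD12, 151.3, 171.3 and 136.7 at GD13, and 170.0, 220.9 and 110.2 at GD14. Its days all overlapped, and its GD13 mean lay above its GD12 mean, unlike that of the first probe set. Bmp2, another ligand of the palatal shelves, was dim, at 19.9, 25.6 and 27.6 at GD12, 16.4, 11.2 and 26.9 at GD13, and 21.5, 3.3 and 27.4 at GD14. Its days overlapped, and the lowest value came from 1 GD14 array. Bmp7, which is made in oral epithelium, had 104.3, 62.6 and 126.6 at GD12, 105.3, 110.9 and 179.0 at GD13, and 110.0, 109.4 and 158.0 at GD14. These days overlapped too, with a log2 difference of GD14 from GD12 of 0.39 (SE 0.31, adjusted p = 0.582, limma), and 0.11 without GD12 replicate 2.

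Bmp6, a ligand linked to cartilage and bone, was higher on the later days. It had 93.6, 96.1 and 92.9 at GD12, 162.0, 110.4 and 188.1 at GD13, and 179.7, 128.8 and 125.9 at GD14. Every GD13 and GD14 array lay above every GD12 array, and the later days spread more widely. The GD14 mean was 145 ± 30.3, against 94.2 ± 1.68 at GD12 (SD, n = 3 each), a log2 difference of 0.59 (SE 0.22, adjusted p = 0.212, limma). A second Bmp6 probe set had 43.7, 48.7 and 46.8 at GD12, 57.3, 42.5 and 84.0 at GD13, and 64.1, 57.9 and 93.0 at GD14. There GD13 overlapped with GD12 and GD14 did not, with a log2 difference of GD14 from GD12 of 0.57 (adjusted p = 0.301, limma). Bone marker intensities were also higher on the later days. The sum over 4 of 8 listed bone genes was 999.6 to 1362 at GD12, 3152.6 to 3507.9 at GD13 and 8039.4 to 9761.1 at GD14. It rose again from GD13 to GD14. Over that step the log2 difference of Bmp6 was -0.07 in the first probe set and 0.24 in the second. The part of these cells in the Bmp6 values was not tested.

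Bmp8a, a close relative of Bmp7, was dim but higher on the later days. Its values were 10.3, 4.0 and 9.4 at GD12, 15.8, 14.1 and 16.7 at GD13, and 14.0, 14.8 and 15.1 at GD14. All GD12 arrays lay below all others, with a log2 difference of GD14 from GD12 of 0.75 (SE 0.24, adjusted p = 0.136, limma), and 0.46 without GD12 replicate 2. Bmp8b is a near-identical copy that the probes may share, and its own probe set read 1.5 to 6.7. Bmp5, which shapes skeletal elements, ranged from 14.2 to 55.9 with no order by day. Bmp2k ranged from 19.7 to 39.2.

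The GDF ligands showed no separation of days. Gdf10, a mesenchymal ligand, ranged from 139.8 to 238.8 (log2 difference of GD14 from GD12 -0.03). Gdf9, best known from the oocyte, ranged from 57.6 to 120.2 (0.36). Gdf5, a joint and cartilage ligand, ranged from 5.3 to 28.4 (-0.58). Gdf3, a ligand of the early embryo, ranged from 7.0 to 21.7 (0.32). Gdf11, which patterns the axial skeleton, ranged from 4.6 to 20.3 and was not tested.

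Inhba encodes the activin A subunit, whose loss causes cleft palate in mice. Its intensities were 123.7, 103.3 and 103.1 at GD12, 92.0, 93.2 and 97.0 at GD13, and 79.6, 90.8 and 77.6 at GD14. No 2 days overlapped, and the order ran from high at GD12 to low at GD14. The GD14 mean was 82.7 ± 7.11, against 110 ± 11.8 at GD12 (SD, n = 3 each), a log2 difference of -0.40 (SE 0.15, unadjusted p = 0.023, adjusted p = 0.192, limma). The inhibin alpha gene Inha, whose product opposes activin, scattered from 13.5 to 120.4, with a log2 difference of GD13 from GD12 of 1.20 (SE 0.64, adjusted p = 0.553, limma). Its GD13 arrays, at 83.3 to 90.3, all lay above its GD12 arrays, at 13.5 to 58.8, and without GD12 replicate 3 the difference was 0.58. Inhbc, best known from the liver, had 26.9, 59.3 and 67.4 at GD12, 29.9, 46.4 and 45.6 at GD13, and 20.7, 55.6 and 10.9 at GD14. The days overlapped, and 2 of the 3 GD14 arrays were low. Its log2 difference of GD14 from GD12 was -0.92 (SE 0.52, adjusted p = 0.410, limma), and -0.45 without GD14 replicate 3. Inhbb, at 0.9 to 10.2, and Inhbe, at 2.3 to 11.5, were not tested.

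The type I receptors did not separate the days. Bmpr1a, the main BMP type I receptor of facial tissue, had 73.6, 69.3 and 77.1 at GD12, 80.1, 69.6 and 45.5 at GD13, and 77.6, 66.5 and 82.1 at GD14. The days overlapped, and the 95% interval of the log2 difference of GD14 from GD12 was -0.44 to 0.51. Acvr1, another BMP type I receptor, was dim at 22.1, 21.3 and 7.5 at GD12, 20.5, 10.7 and 18.1 at GD13, and 19.8, 21.4 and 24.1 at GD14. Its days overlapped as well. Acvrl1, an endothelial receptor, ranged from 105 to 158.4, and its 3 probe sets gave log2 differences of GD14 from GD12 of 0.04, 0.15 and -0.06. The activin receptor Acvr1b ranged from 3.3 to 30.8 and had the largest SE of the 34 genes, 0.66. Bmpr1b, a receptor of cartilage condensations, ranged from 1.4 to 23.1 and was not tested.

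Among the type II receptors, Acvr2b had the largest log2 difference of the 34 genes, both of GD13 from GD12 and of GD14 from GD12. This receptor for activins, GDFs and some BMPs had 256.1, 255.3 and 250.6 at GD12, 82.3, 97.9 and 149.1 at GD13, and 85.2, 96.7 and 179.5 at GD14. The GD12 arrays were close together and above all others, and at GD13 and GD14 the arrays numbered 3 were the highest. The GD13 mean was 110 ± 34.9, against 254 ± 2.97 at GD12 (SD, n = 3 each), a log2 difference of -1.23 (SE 0.30, adjusted p = 0.144, limma). The GD14 mean was 120 ± 51.4, against the same GD12 mean, a log2 difference of -1.13 (SE 0.30, 95% interval -1.82 to -0.45, adjusted p = 0.0755, limma), or 2.20-fold lower.

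With the replicate number as a block, the GD14 difference of Acvr2b passed (adjusted p = 0.0332, limma), as did 6.67% of all tested probe sets. The ratio of 3' to 5' actin control probe sets, a measure of RNA integrity, differed among the arrays. It was 1.54, 1.76 and 1.42 at GD12, 2.09, 2.23 and 1.25 at GD13, and 2.44, 2.29 and 1.37 at GD14. The 4 arrays with Acvr2b under 100 were the 4 with a ratio above 2, and the arrays numbered 3 had low ratios on every day. The Gapdh 3' to 5' ratio was also highest on the 4 arrays with Acvr2b under 100. It was 1.094, 1.106 and 0.833 at GD12, 1.130, 1.112 and 0.802 at GD13, and 1.292, 1.260 and 0.851 at GD14. The margin was narrow, at 1.112 for GD13 replicate 2 against 1.106 for GD12 replicate 2. Whether RNA integrity had a part in the Acvr2b values was not tested. With the actin ratio as a covariate the log2 difference of GD14 from GD12 was -0.81 (adjusted p = 0.0408, limma). From arrays 1 and 2 of each day alone it was -1.46 (adjusted p = 0.0245, limma). Among these arrays every GD12 array had a lower actin ratio than every later one. Day and ratio therefore cannot be told apart there.

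**Figure D2:**
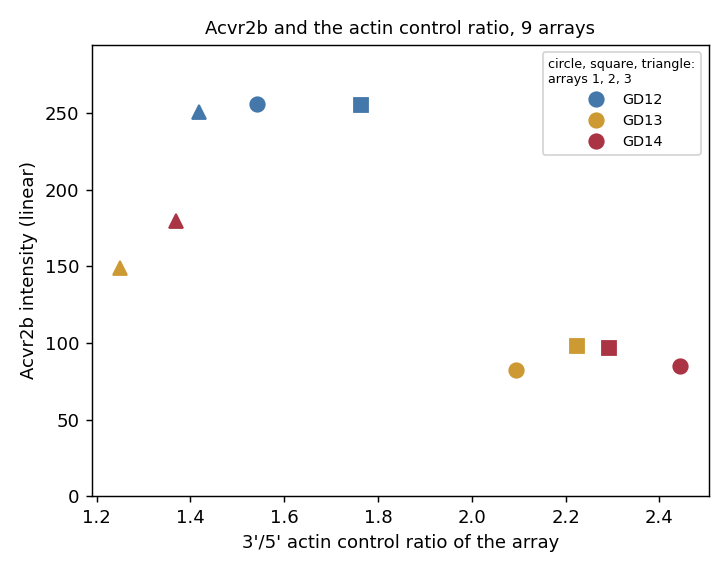
Acvr2b intensity (linear, vertical axis) against the 3' to 5' actin control ratio (horizontal axis) for the 9 arrays; colours are days and symbols are array numbers. The GD12 arrays lie at 250.6 to 256.1 with ratios of 1.42 to 1.76, and the arrays numbered 3 of GD13 and GD14 lie at 149.1 and 179.5 with lower ratios.

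Bmpr2, the type II receptor for BMPs, was dim. It had 16.9, 22.6 and 22.0 at GD12, 12.7, 4.4 and 9.8 at GD13, and 14.4, 16.2 and 4.1 at GD14. Every GD12 array lay above every later one, and the log2 difference from GD12 was -1.03 at GD13 (SE 0.40, unadjusted p = 0.0313, adjusted p = 0.376, limma) and -0.81 at GD14 (adjusted p = 0.350, limma). Without GD14 replicate 3 the GD14 value was -0.35. Acvr2a, the other activin type II receptor, had 133.2, 101.1 and 157.0 at GD12, 140.0, 118.8 and 133.0 at GD13, and 125.3, 115.0 and 90.6 at GD14. Its days overlapped, and its 2 probe sets gave log2 differences of GD14 from GD12 of -0.23 and -0.16.

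**Figure D3:**
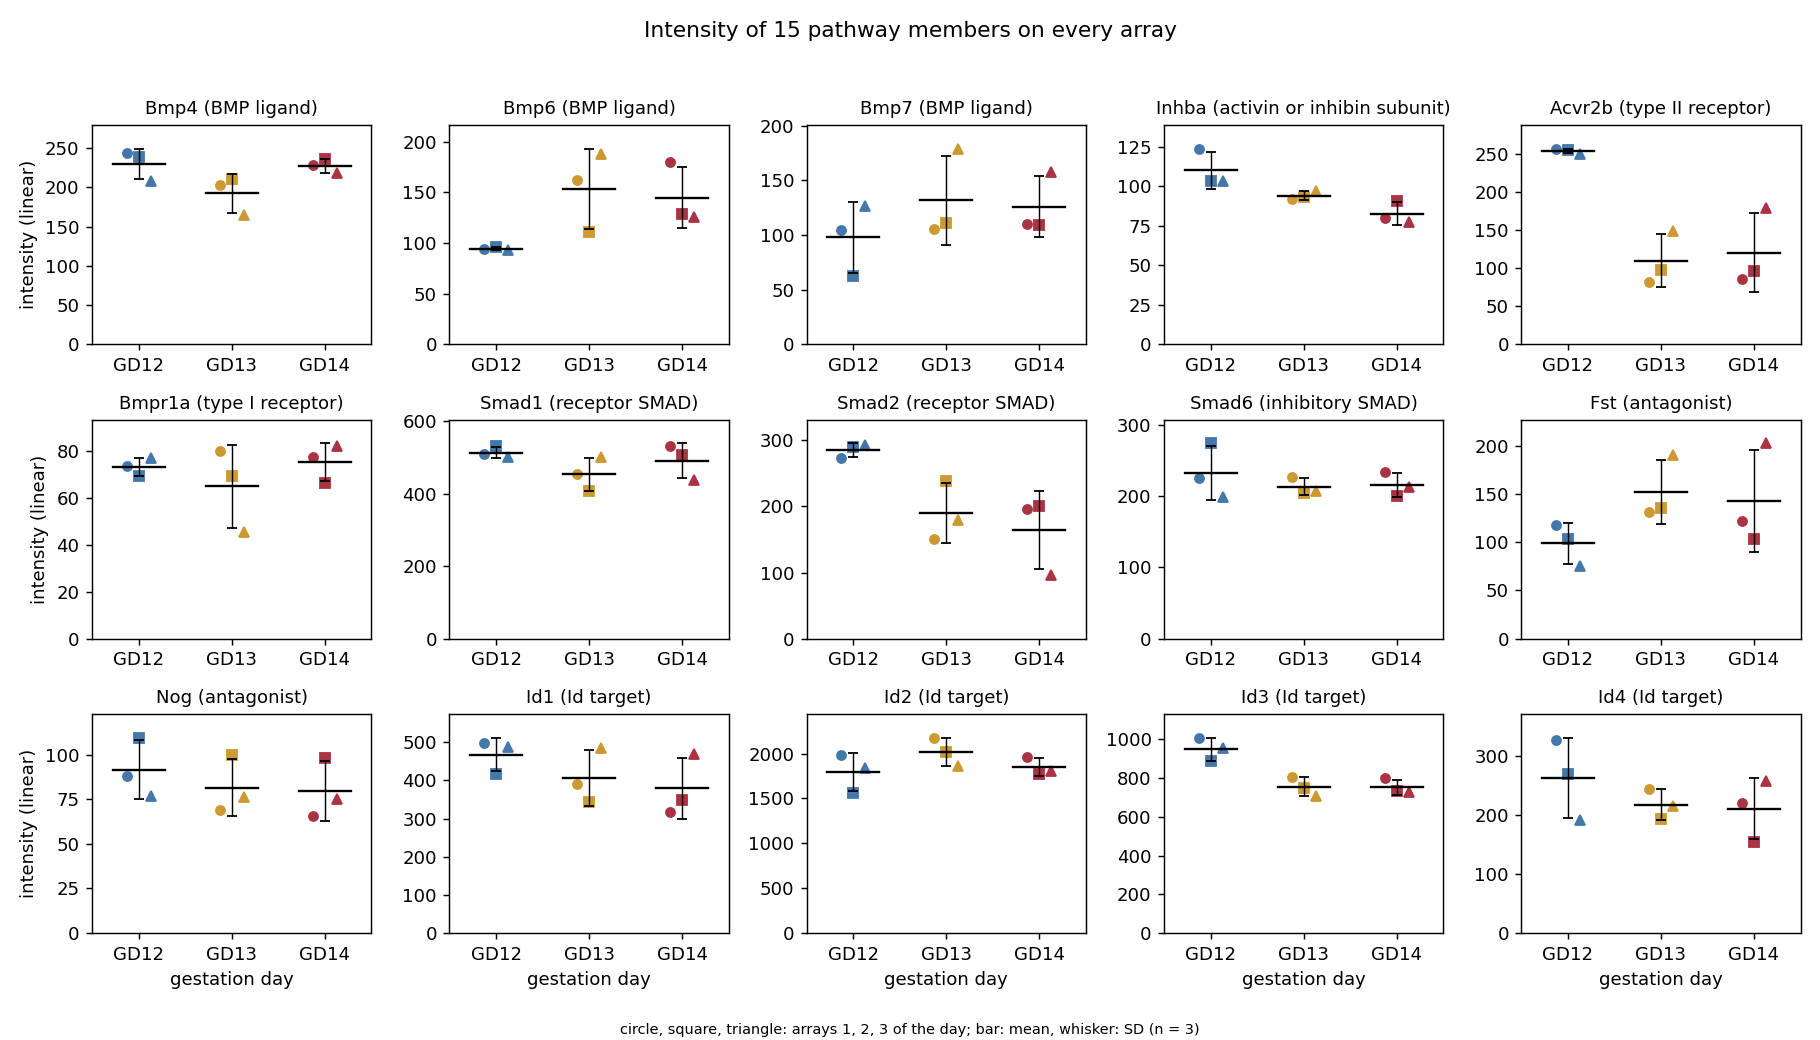
Intensity (linear) of selected ligands, receptors, SMADs, antagonists and Id genes on each of 9 arrays, by gestation day; symbols are array numbers, bars are means and whiskers are SDs (n = 3). Acvr2b, Smad2, Inhba and Id3 have all GD12 arrays above all GD14 arrays, and Bmp6 has them below.

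Of the receptor SMADs, Smad1, which carries the BMP signal, had 508.3, 531.0 and 499.4 at GD12, 453.2, 407.9 and 499.4 at GD13, and 529.7, 505.4 and 436.4 at GD14. The days overlapped, with a log2 difference of GD14 from GD12 of -0.07 (95% interval -0.41 to 0.27). A second Smad1 probe set gave 0.13 (95% interval -0.32 to 0.58), also with overlapping days. The difference of GD13 from GD12 was -0.18 in the first and -0.02 in the second. Smad2, which carries the activin signal, had 273.1, 290.0 and 292.5 at GD12, 150.4, 238.8 and 179.7 at GD13, and 196.8, 199.9 and 95.5 at GD14. All GD12 arrays lay above all later ones. The GD14 mean was 164 ± 59.4, against 285 ± 10.6 at GD12 (SD, n = 3 each), a log2 difference of -0.86 (SE 0.29, unadjusted p = 0.0169, adjusted p = 0.163, limma), and -0.52 without GD14 replicate 3. Smad5, a BMP SMAD, ranged from 14.8 to 61.3, with overlapping days (-0.62, adjusted p = 0.541, limma). Smad3, the other activin SMAD, ranged from 2.0 to 31.2 and was not tested.

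The common SMAD gene Smad4 had 431.6, 439.4 and 361.2 at GD12, 453.6, 409.5 and 402.2 at GD13, and 496.4, 427.4 and 310.6 at GD14. The inhibitor Smad6 had 224.7, 274.3 and 198.9 at GD12, 227.3, 205.0 and 207.8 at GD13, and 234.3, 200.4 and 212.4 at GD14. Both overlapped on all days, with 95% intervals for the log2 difference of GD14 from GD12 of -0.46 to 0.42 for Smad4 and -0.47 to 0.27 for Smad6. The inhibitor Smad7 had 111.8, 133.5 and 115.5 at GD12, 127.4, 121.7 and 153.2 at GD13, and 69.2, 205.9 and 114.5 at GD14. Its GD14 arrays held both the lowest and the highest of the 9 values.

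None of the secreted antagonists passed. Noggin (Nog), which binds BMP ligands, had 88.2, 109.6 and 77.0 at GD12, 68.8, 99.8 and 76.1 at GD13, and 65.6, 97.9 and 75.4 at GD14. The array numbered 2 was the highest on each day, and the days overlapped (log2 difference of GD14 from GD12 -0.20, SE 0.22). Chordin (Chrd), also a BMP antagonist, was dim at 12.1, 17.4 and 7.1 at GD12, 15.5, 21.5 and 12.3 at GD13, and 9.5, 26.2 and 15.7 at GD14. Here too the array numbered 2 was the highest on each day. Follistatin (Fst), which binds activins, had 117.5, 103.1 and 75.6 at GD12, 131.1, 135.0 and 190.1 at GD13, and 122.0, 103.8 and 202.7 at GD14. All GD13 arrays lay above all GD12 arrays, with a log2 difference of 0.61 (SE 0.28, adjusted p = 0.479, limma). On GD14 the array numbered 3 stood above the other arrays. Gremlin (Grem1) ranged from 5.0 to 13.1 and was not tested.

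The Id genes encode inhibitors of differentiation that bind basic helix-loop-helix factors. Id3 had 1006.7, 886.2 and 952.3 at GD12, 805.1, 750.9 and 707.9 at GD13, and 798.3, 731.2 and 728.0 at GD14. All GD12 arrays lay above all later ones. The GD14 mean was 753 ± 39.7, against 948 ± 60.3 at GD12 (SD, n = 3 each), a log2 difference of -0.33 with the lowest SE of the 34 genes, 0.14 (adjusted p = 0.252, limma). Id1 had 498.3, 417.0 and 489.0 at GD12, 390.3, 342.3 and 485.7 at GD13, and 317.8, 349.4 and 469.9 at GD14. Its days overlapped, with a log2 difference of GD14 from GD12 of -0.32 (SE 0.20). Id4 had 327.1, 270.1 and 191.2 at GD12, 244.7, 193.1 and 214.7 at GD13, and 220.3, 154.7 and 256.9 at GD14. Id4 overlapped too (-0.31, SE 0.25). Id2 had 1979.1, 1565.3 and 1833.3 at GD12, 2178.1, 2016.2 and 1858.6 at GD13, and 1963.2, 1774.2 and 1806.6 at GD14. Its 95% interval for the log2 difference of GD14 from GD12 was -0.29 to 0.39. The marker sum of facial mesenchyme, over 9 of 10 listed genes, was 3664.4 to 4394.7 at GD12, 3184.8 to 3311.4 at GD13 and 2897.3 to 3010.5 at GD14. Its part in the Id values was not tested.

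By role, the median log2 difference of GD14 from GD12 was -0.81 over 3 type II receptors, -0.62 over 3 tested receptor SMADs, -0.40 over 3 tested activin or inhibin genes and -0.32 over the 4 Id genes. The type II value is that of Bmpr2, the receptor SMAD value that of Smad5 and the activin or inhibin value that of Inhba. The median was 0.04 over 4 tested type I receptors, -0.06 over the 2 inhibitory SMADs and 0.15 over 4 tested GDFs. It was 0.19 over 6 tested BMP ligands and 0.38 over 3 tested antagonists, the latter being the value of Chrd. Over all 34 genes the median was -0.02, and over all tested probe sets it was also -0.02. Of the 34, 13 differences were positive and 21 negative. The arrays limit what could be seen: the 95% interval lay within 2-fold either way for 17 of the 34 genes, against 63.6% of all tested probe sets.

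**Figure D4:**
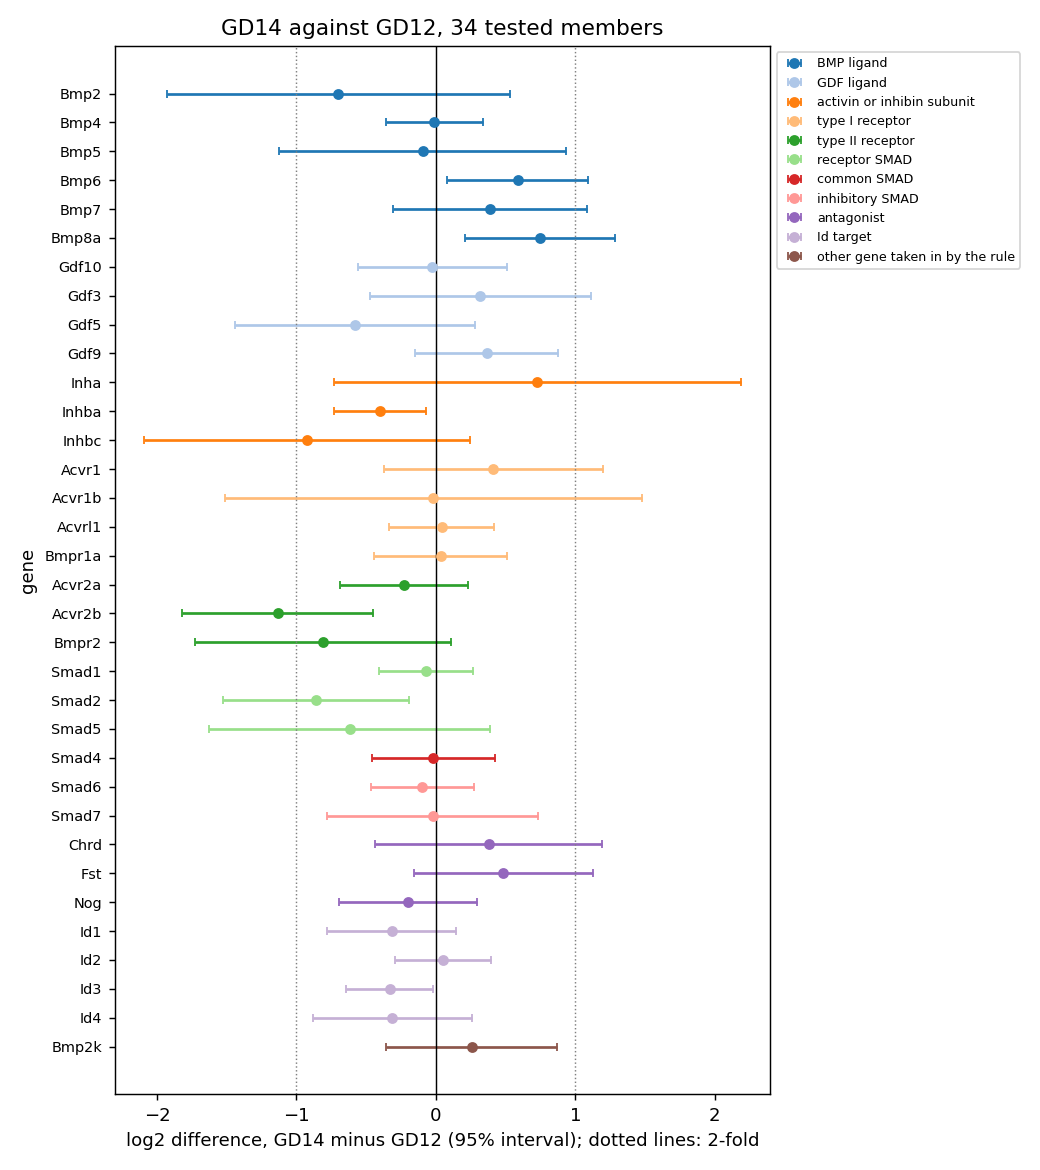
Log2 difference of GD14 from GD12 (intensity plus 3) for the 34 tested genes by role; points are estimates and lines are pointwise 95% intervals from limma. The intervals of Acvr2b, Smad2, Inhba, Id3, Bmp6 and Bmp8a exclude 0 without adjustment for multiple tests.

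Other genes of the pathway were read from 3 lists. Of the extracellular modulators, 11 were tested: 1 rose, 0 fell and 10 did not pass between GD14 and GD12, where 4.3% of all tested probe sets passed (median log2 difference 0.13). The one that rose was Nbl1, a BMP antagonist of the DAN family. It had 129.9, 110.8 and 84.6 at GD12, 175.3, 170.7 and 116.0 at GD13, and 211.4, 203.9 and 232.7 at GD14. All GD14 arrays lay above all others, with a log2 difference from GD12 of 0.99 (adjusted p = 0.0377, limma). In 14 of 21 other settings it did not pass. These include the removal of any 1 array except GD13 replicate 3, with an adjusted p of up to 0.114 without GD14 replicate 1 (limma). Of 13 tested intracellular modulators, such as Ski, Tgif1 and Nedd4l, 0 passed in limma (median 0.08), and 2 had an unadjusted p under 0.05, Tgif1 and Tgif2, against 17.5% of all tested probe sets.

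BMP-responsive transcription factors gave 3 calls among 10 tested, 1 higher and 2 lower at GD14, where 4.3% of all tested probe sets passed (median -0.58). At an unadjusted p under 0.05 they numbered 8 of 10, against 17.5% of all. The list was chosen with earlier results of these data known, so this share is not independent evidence. The 8 went both ways, among them Dlx5 (log2 difference of GD14 from GD12 0.62) and Hey1 (-0.88). Msx1, a mesenchymal BMP target needed for palate growth, had 1119.8, 1365.8 and 949.5 at GD12, 678.3, 685.0 and 700.8 at GD13, and 550.3, 635.2 and 565.4 at GD14. It fell by GD14, with a log2 difference from GD12 of -0.96 (adjusted p = 0.0142, limma), and the adjusted p was 0.0672 without GD14 replicate 1 and 0.0545 without GD12 replicate 1. Msx1 also stands in the facial mesenchyme marker list, the sum of which without Msx1 was 2714.9 to 3028.9 at GD12, 2499.8 to 2610.6 at GD13 and 2347.0 to 2445.1 at GD14. The part of these cells in the Msx1 values was not tested.

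Tbx3, a T-box factor, had 41.1, 59.1 and 55.6 at GD12, 22.6, 21.6 and 29.1 at GD13, and 22.1, 14.0 and 19.3 at GD14. All GD12 arrays lay above the later ones, with a log2 difference of GD14 from GD12 of -1.36 (adjusted p = 0.00873, limma). Dlx3, a homeobox factor of epithelium, bone and tooth, rose, with 82.1, 47.9 and 47.4 at GD12, 94.6, 107.3 and 76.6 at GD13, and 186.1, 183.2 and 157.9 at GD14. Its log2 difference of GD14 from GD12 was 1.57 (adjusted p = 0.00733, limma). From arrays 1 and 2 of each day alone, the adjusted p (limma) was 0.0798 for Tbx3 and 0.0638 for Dlx3. The epithelial marker sum was 394.7 to 445.4 at GD12, 535.8 to 608.4 at GD13 and 703.6 to 750.1 at GD14, and its part in Dlx3 was not tested. Without Krt19 and Col17a1, the 2 epithelial genes that passed, the sum was 327.3 to 345.5 at GD12, 349.3 to 379.5 at GD13 and 304.1 to 373.0 at GD14. Krt5, Krt14 and Krt15 were too dim to be tested.

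**Figure D5:**
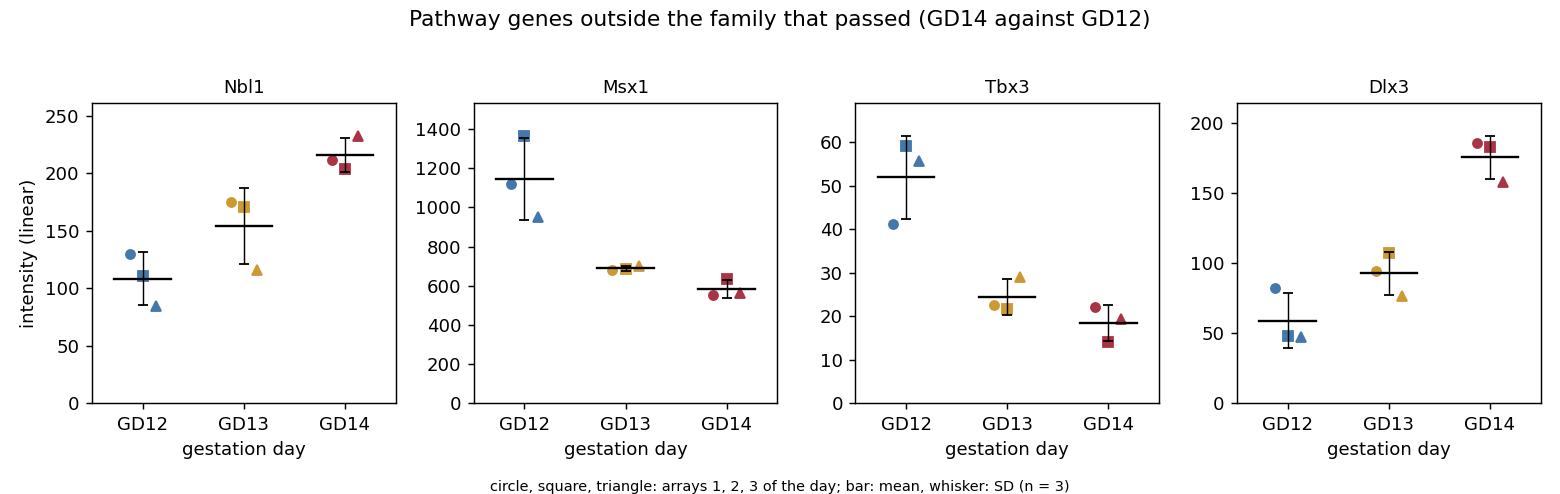
Intensity (linear) of Nbl1, Msx1, Tbx3 and Dlx3 by gestation day on 9 arrays; symbols are array numbers, bars are means and whiskers are SDs (n = 3). Nbl1 and Dlx3 are highest at GD14, and Msx1 and Tbx3 are highest at GD12.

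Marker genes of several cell types changed over the same days. Between GD14 and GD12, 4 of 4 tested bone genes, 4 of 8 muscle genes, 2 of 6 cartilage genes, 2 of 5 epithelial genes and 5 of 6 macrophage genes rose, against 4.3% of all tested probe sets that passed in either direction. Members of these lists did not all go one way: the cartilage gene Col9a1 had a log2 difference of -0.77 (adjusted p = 0.0848, limma), the epithelial gene Trp63 -0.21 and the muscle gene Ckm -0.38. Of the red cell genes 3 of 5 fell, the globin genes Hbb-y, Hba-x and Hbb-bh1. So did 1 of 6 neuronal genes, Mapt, and 1 of 9 facial mesenchyme genes, Msx1. Some genes that passed had further tested probe sets. Those of Col1a1 (1.42), Ibsp (1.23) and Hbb-y (-2.98) passed too. That of the macrophage gene C1qb (-0.003, adjusted p = 0.998, limma) did not. Nor did those of Mapt (-0.96 and -0.28, adjusted p = 0.0759 and 0.831, limma). Of 7 endothelial genes 0 passed in limma, and 1, Cd34, had an unadjusted p under 0.05. The neuronal sum was 3044.7, 3024.3 and 1672.2 on the 3 GD12 arrays, 1325.7 to 1891.1 at GD13 and 1301.3 to 1714.9 at GD14. The part of these cells in the pathway values was not tested.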

How the data were processed

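Total RNA of mouse orofacial tissue was measured on 9 one-colour arrays, 3 per gestation day, grouped by the sample titles. The deposited values are intensities on a linear scale already scaled by the authors, since the mean of each array, trimmed by 2% at either end, came to 149.1 to 149.9. The software behind them is not given in the sources used here. Array medians lay between 47.15 and 56.95, and no further scaling was applied. Precision is limited by the number of arrays.

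Of 12488 probe sets, 66 controls were left out. The array annotation gave 1 symbol for 10833 probe sets, several for 396 and none for 1193. Of the single-symbol gene IDs, 10817 matched the RefSeq gene table of GRCm38.p6, and 0 symbols changed. Intensities were put on the log2 scale after adding 3, which understates the change of dim genes. The filter took the mean of the log2 values of a probe set and dropped the lowest 25% (a mean equal to an intensity of 10.4 or less), so a gene such as Smad3, with few high arrays, can be left out at a higher arithmetic mean. The remaining 9316 entered limma 3.58.1 (R 4.3.3) with all 9 arrays (6 residual and 2.85 prior degrees of freedom), with Benjamini-Hochberg adjustment over all of them. The code of the fit was run on simulated arrays with known changes. Their noise was independent between arrays, unlike the residuals described below. Python 3.11.15 with pandas 2.3.3 and matplotlib 3.10.9 made the tables and plots.

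Residuals of arrays with the same replicate number on different days correlated at 0.19 to 0.42 (9 pairs), and those with different numbers at -0.29 to -0.02 (18 pairs). The numbers therefore pair the arrays, although the labels do not say what they stand for. The pairwise comparisons share arrays and are not independent. Members and lists were chosen with earlier results of these data known. Genes were given on all arrays if they passed, had an unadjusted p under 0.05 between GD14 and GD12, or stood among 19 core pathway genes. Other members were given by range, and genes of 3 pathway lists were given with values where they passed. Tgif1, Tgif2, Cd34, Dlx5, Hey1 and the list genes that went against their list were named after their values were seen. Ski and Nedd4l were named as examples. Alternatives covered the added value, filter, scaling, variance model, array weights, replicate block, actin ratio, samples in the fit and each array left out.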

Additional observations from a re-analysis of the deposited data

How the results depend on the processing

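In 21 other settings, 9 of them leaving out 1 array, Acvr2b was the only one of the genes to pass in any comparison. Between GD14 and GD12 the count of genes that passed was 0 as reported. It was 1 with the filter at the median, trended and robust variance, array weights, the replicate block, the actin ratio as a covariate, and arrays 1 and 2 of each day, and 0 to 1 when single arrays were left out. The 1 came without GD14 replicate 3. Over the settings, the log2 difference of Acvr2b lay between -1.46 and -0.81, with adjusted p-values from 0.0198 to 0.232 (limma). Between GD13 and GD12 the count was 1 with array weights and with the actin ratio. In the F-test it was 1 with the filter at the median, trended and robust variance, array weights, the actin ratio, and arrays 1 and 2 of each day, and 0 to 1 when single arrays were left out. The replicate block changed no other call among the genes. The cause of these changes was not tested. Of 702 differences recomputed, 41 changed sign, 37 of them in genes within 1 SE of 0. With arrays 1 and 2 of each day the log2 difference of GD14 from GD12 turned to -0.066 for Acvr1, 1.10 for Acvr1b, 0.047 for Acvr2a, 0.42 for Bmp5 and -0.12 for Inha. With single arrays left out it ranged from -1.13 to 0.0068 for Bmp2, the highest without GD14 replicate 2, and from -0.42 to 0.35 for Smad7, the highest without GD14 replicate 1. Of 20 genes whose difference of GD14 from GD12 exceeded 1 SE, 16 moved by over 1.5 times when some 1 array was left out, as did 12 of 18 for GD13 from GD12. Without 1 array, the genes with an unadjusted p under 0.05 numbered 4 to 8 between GD14 and GD12, 3 to 7 between GD13 and GD12, 0 to 2 between GD14 and GD13, and 2 to 7 in the F-test. Of all tested probe sets, 401 passed between GD14 and GD12. With the replicate block 621 passed, with array weights 617, from those 2 days alone 225, and without 1 array 176 to 391. Between GD13 and GD12 60 passed, against 94 with the filter at the median, 115 with trended and robust variance, 201 with array weights, 35 with no filter, 34 from those 2 days alone, 10 from arrays 1 and 2 of each day, and 17 to 59 without 1 array. Between GD14 and GD13 4 passed, against 0 to 26 over the settings. In the F-test 241 passed, against 369 with trended and robust variance, 410 with array weights, 85 from arrays 1 and 2 of each day, and 86 to 236 without 1 array.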
